A study of Mus musculus with 8 samples.

Results

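The genes described here are those whose only name in the deposited table is a RIKEN clone number of the testis series, with the prefixes 4921, 4922 and 4930 to 4933. Of 870 such genes among the 55357 in the table, 192 had a mean of at least 1 TPM (a transcript level scaled for gene length and depth) over the 4 control libraries and were taken as members. Another 339 of the 870 were at 0 counts in all 8 libraries. All 192 passed the expression filter of the genotype comparison, which kept the 20187 genes that reached 1 TPM in at least 1 library. Because the control level chose the members, genes high in controls were favoured, and the counts of members lower in the mutant are given as descriptions.

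The libraries were made from germ cell preparations of C57BL/6 male pups killed at 15 days after birth. Both groups carried floxed *Mgat2* alleles, *Mgat2*[F/F] alone in the 4 controls and *Mgat2*[F/F]:*Stra8*-iCre in the 4 conditional knockouts (cKO). *Mgat2* encodes the GlcNAc-transferase that commits N-glycans to the complex type, and the *Stra8* promoter drives the Cre in spermatogonia, so cells that never expressed the transgene kept the gene. No control carried the Cre transgene alone. Each library came from 1 male, per the study's sample list.

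RIKEN numbers were given to full-length mouse cDNA clones before their genes had names, and the leading digits stand for the library a clone came from. The prefixes above stand for adult testis libraries, as does the prefix 1700. The adult testis is rich in spermatocytes and spermatids, which transcribe many long noncoding RNAs (lncRNAs) and testis-specific coding genes of unknown function. In a 15-day testis the first wave of spermatogenesis has reached meiotic prophase, with spermatocytes present up to pachytene.

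Each library held 12584726 to 15907505 expected counts. CPM, counts scaled to the normalized library size, were used to compare a gene between libraries, and 3 counts, taken as the smallest signal, were worth 0.189 to 0.238 CPM. *Mgat2* itself had 69.8, 31.8, 64.3 and 59.8 CPM in controls 1 to 4 and 35.3, 20.1, 37.6 and 16.0 CPM in cKO 1 to 4. It averaged 56.4 ± 16.9 (SD, n = 4) against 27.2 ± 10.8, and control 2 lay within the cKO range (two-sided exact permutation p = 0.0857). Markers of Sertoli cells, the somatic cells of the tubule, were abundant in both groups, with a summed level of 5230 to 6370 TPM over 8 genes in controls and 5340 to 6370 TPM in cKO. The 8 spermatogonial markers summed to 1230 to 1420 TPM in controls and 1410 to 1660 TPM in cKO, and the 8 early meiotic markers to 819 to 1360 and 864 to 1120 TPM, respectively. Of 8 spermatid markers, 4 passed the filter, and *Prm1* and *Tnp2*, which package sperm DNA, were at 0 in all 8 libraries. The label germ cells therefore covers preparations with spermatogonia, spermatocytes and Sertoli RNA.

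Both libraries numbered 1 stood apart from their groups in these RIKEN genes. Control 1 held the highest CPM of the 8 libraries in 108 of the 192 members (56.2%), against 22.7% of all genes tested. Within the cKO group, cKO 1 was the highest in 102 members (53.1%), against 36.1% of all genes. The summed level of the members was 1855.7, 1203.7, 1374.8 and 1112.8 TPM in controls 1 to 4 and 1092.0, 907.43, 908.92 and 954.95 TPM in cKO 1 to 4. Every cKO sum lay below every control sum, but cKO 1 was close to control 4. The median member stood 0.45 log2 units above the control mean in control 1, and 0.38, 0.07 and 0.37 units below it in controls 2 to 4. It stood 0.35 units below in cKO 1 and 0.89, 0.82 and 0.71 units below in cKO 2 to 4, so that cKO 1 lay with controls 2 and 4. Results are therefore also given without both libraries numbered 1. This setting was chosen after the values of these same genes were seen. Leaving out libraries that stand apart in the members also lowers their spread, so p-values without both libraries numbered 1 are descriptions.

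**Figure D1:**
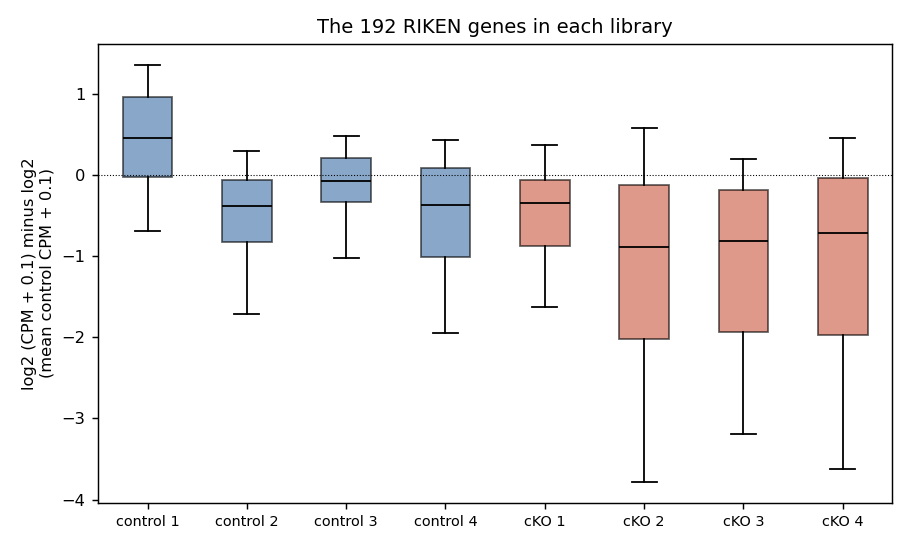
For each of the 8 libraries, the box gives the quartiles, the line the median and the whiskers the 5th and 95th percentiles of the 192 members, as log2 (CPM + 0.1) minus log2 (mean control CPM + 0.1). Control 1 is the highest box, cKO 1 lies level with controls 2 and 4, and cKO 2 to 4 are the lowest.

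Like the RIKEN genes, 10 markers of pachytene spermatocytes, the stage of crossing over, had their highest summed level in control 1 and, among mutants, in cKO 1. They summed to 3335, 1369, 1749 and 1096 TPM in controls 1 to 4 and to 1147, 624.6, 630.2 and 601.8 TPM in cKO 1 to 4. Of the 10, 9 were lower in cKO (median log2 fold change -1.32), 2 had every cKO library below every control, and none passed the edgeR test, with 4 at an unadjusted p under 0.05 and 1 called by DESeq2. In bulk RNA, fewer cells of a type and less RNA per cell cannot be told apart. The part that the number of pachytene cells has in the values of the RIKEN genes was not tested.

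Most members were expressed at a low level. The median was 3.38 TPM in controls and 1.77 TPM in cKO, 65 members were under 2 TPM and 27 reached 10 TPM in controls. At least 1 cKO library held 3 counts or fewer for 65 members, and for 7 members all 4 did, although none was at 0 in all 4. Members varied more between like libraries than other genes did. The median coefficient of variation (SD over mean of TPM) was 49.8% over controls and 48.2% over cKO, against 17.5% and 16.9% for all genes with a mean control level of at least 1 TPM. Without the libraries numbered 1 it was 35.4% and 35.2% for members, and 12.8% and 11.6% for all such genes. The median control level of all such genes was 17.4 TPM, against 3.38 TPM for members. Spread was not compared at equal level, so the part of the low level in it was not tested.

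Lower values in cKO prevailed among the members. The log2 fold change (cKO over control) was below 0 in 161 of 192 (83.9%), against 48.6% of all genes tested and 49.1% of those with a mean control level of at least 1 TPM. Its median was -0.71 with quartiles of -1.60 and -0.14, against 0.0069 over all genes tested. A total of 79 members (41.1%) were at least 2-fold lower, against 9.88% of all genes, and 1 member was at least 2-fold higher, against 3.99%. Of the 16615 genes with a mean control level of at least 1 TPM, 1262 were at least 2-fold lower and 62 at least 2-fold higher. Most 2-fold rises over all genes were thus in genes under that level, and the members show no shortage of rises beside genes chosen alike. Every cKO library lay below every control in 22 members (11.5%), against 3.03% of all genes tested and 3.45% of those at 1 TPM or more. Leaving out cKO 1 raised this to 65 members (33.9%), against 8.97% of all genes, and leaving out control 4 to 36 members (18.8%), against 5.66%. It was 69 members without both libraries numbered 1 (35.9%), against 10.6% of all genes. Every cKO library lay above in 1 member, against 2.47%, and in 6 without both libraries numbered 1, against 8.17%. Without both libraries numbered 1, 151 members were lower and the median was -0.67, while without control 1 alone the median was -0.46.

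The count moved with the libraries that chose the genes. Of the testis-series genes with a mean of at least 1 TPM over all 8 libraries, 141 of 176 (80.1%) were lower, and the median log2 fold change was -0.62. Chosen by the cKO level instead, which favours genes high in the mutant, 118 of 155 (76.1%) were lower and the median was -0.44. The direction was the same whichever group chose the genes, but the lists share most of their genes. Only 46 of the 192 members had a mean cKO level under 1 TPM, and 9 other tested testis-series genes reached it. The lists are therefore no independent check of the choice by control level.

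Few single members passed the test over all genes. In the quasi-likelihood test of edgeR, with p-values adjusted by Benjamini-Hochberg over all genes, 1 member had an adjusted p under 0.05, against 0.0396% of all genes (8 genes, all lower). At an unadjusted p under 0.05, 49 members (25.5%) were lower, against 6.28% of all genes, and 1 was higher, against 2.62%. DESeq2 called 12 members, all lower, of the 134 to which it gave an adjusted p (8.96%), against 1.97% of all genes called and 1.85% called lower. In each of the 12, every cKO library lay below every control. A call favours genes with groups apart, so this adds no evidence beyond the calls. Without both libraries numbered 1, edgeR called 32 members (16.7%), all lower, against 4.24% of all genes called and 3.78% called lower, and 10 of the 12 DESeq2 genes were among them.

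**Figure D2:**
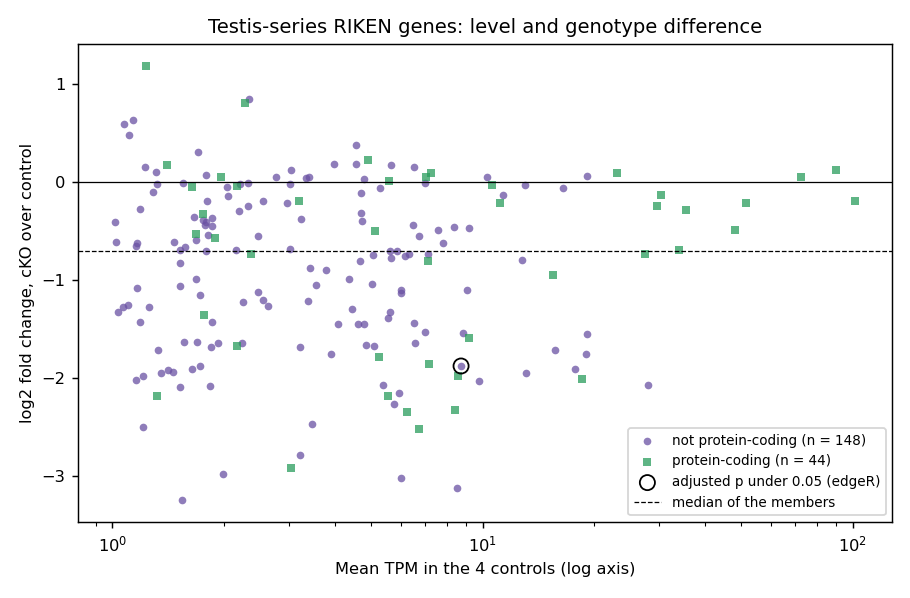
Each point is 1 of the 192 members, with its mean control level in TPM on a log axis and its log2 fold change of cKO over control. Circles are the 148 members that are not protein-coding, squares the 44 protein-coding members, the ring marks 4921527H02Rik, and the dashed line is the median of -0.71. Points lie mostly below 0, and the squares at the highest levels lie near 0.

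By annotation the members were 121 lncRNAs, 44 protein-coding genes, 17 genes marked TEC (transcripts to be experimentally tested) and 5 transcribed pseudogenes. The other 5 were absent from the annotation release used. The lncRNAs were lower in 107 of 121, with a median of -0.81 for the log2 fold change, the protein-coding genes in 33 of 44 with a median of -0.41, and the TEC genes in 13 of 17 with a median of -0.37. Without both libraries numbered 1, the lncRNA median was still -0.81 and the coding median was -0.44, but the TEC median was -0.08 with 9 of 17 lower. The members were also cut into 3 equal groups by mean level over all 8 libraries. From the lowest, 57, 54 and 50 of 64 were lower, with medians of -0.91, -0.84 and -0.52. Members had a mean of at least 1 TPM in controls. A member with a mean under 1 TPM over all 8 libraries therefore had a lower mean TPM in cKO. Such members fall in the lowest group, so this order is partly set by the choice of members. By clone prefix the share lower ran from 72.7% for the 11 members of 4931 to 91.8% for the 49 members of 4933. The 5 members on the X chromosome were all lower, with a median of only -0.06.

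The member that passed the edgeR test was 4921527H02Rik, a TEC gene of a single exon on chromosome 3 (GRCm39, 124191735 to 124193407, minus strand). No other tested gene overlapped it or started within 1000 bases. It held 156, 100, 125 and 76 counts in controls 1 to 4 and 38, 34, 31 and 21 counts in cKO 1 to 4. The groups did not overlap in CPM, with 7.73 ± 2.08 (SD, n = 4) in controls and 2.09 ± 0.434 in cKO. It fell by 1.88 on the log2 scale (SE 0.26, adjusted p = 0.0346 by edgeR). Without both libraries numbered 1 the log2 fold change was -1.79 (adjusted p = 1.22e-05 by edgeR). The edgeR call was lost when any 1 of control 2, control 3, cKO 2, cKO 3 or cKO 4 was left out, with adjusted p-values of 0.0929 to 0.258.

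Among the 12 members with the lowest p, 7 others were lncRNAs, whose roles in germ cells are not known from their annotation. The lncRNA 4933433G15Rik lies on chromosome 9 (75317377 to 75325011, plus strand), head to head with *Mapk6*, which encodes the atypical MAP kinase ERK3, the starts being 65 bases apart. It had 5.16, 5.90, 7.58 and 4.69 CPM in controls and 3.05, 1.36, 1.68 and 1.92 CPM in cKO. The groups did not overlap, cKO 1 being the highest of the mutants (log2 fold change -1.54, SE 0.29). Its adjusted p was 0.141 by edgeR with all libraries and 1.78e-05 without both numbered 1. *Mapk6* had a log2 fold change of -0.19 ± 0.08 (SE) at 153.8 TPM in controls and 134.5 TPM in cKO.

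The lncRNA with the highest level of these was 4933404O12Rik on chromosome 5 (136944735 to 136965968, plus strand), with up to 6 exons and no tested gene beside it. Its values were 63.1, 27.8, 36.9 and 26.4 CPM in controls and 19.2, 11.3, 12.2 and 9.86 CPM in cKO. All cKO libraries were below all controls, and library 1 was the highest of each group. The log2 fold change was -1.55 (SE 0.33), with an adjusted p of 0.291 by edgeR, 7.21e-05 by DESeq2 and 3.40e-09 by edgeR without both libraries numbered 1. On chromosome 10 (10110696 to 10145032, plus strand), 4930598N05Rik had 5.36, 3.83, 3.79 and 2.97 CPM in controls and 1.99, 1.36, 2.09 and 1.99 CPM in cKO. These groups did not overlap either (log2 fold change -1.10, SE 0.27), but the adjusted p was 0.297 by edgeR, and 0.0892 without both libraries numbered 1. It shares 12 exonic bases with the opposite-strand lncRNA *Gm31904*, whose log2 fold change was -0.82 ± 0.55 (SE).

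The sequences around the starts of the 4 noncoding members just described are shown as examples, 1 TEC gene and 3 lncRNAs among the 12 members with the lowest p. Each runs 5′ to 3′ on the gene's own strand over 250 bases before and 50 bases after the annotated start (GRCm39 sequence and GENCODE start), except that of 4933433G15Rik, which was cut where the exon of *Mapk6* begins. Capitals mark matches on either strand to AACTGNC, a MYB-type motif, or TGACGT, a part of the cyclic AMP response element.
4921527H02Rik (chr3:124193358-124193657, minus strand): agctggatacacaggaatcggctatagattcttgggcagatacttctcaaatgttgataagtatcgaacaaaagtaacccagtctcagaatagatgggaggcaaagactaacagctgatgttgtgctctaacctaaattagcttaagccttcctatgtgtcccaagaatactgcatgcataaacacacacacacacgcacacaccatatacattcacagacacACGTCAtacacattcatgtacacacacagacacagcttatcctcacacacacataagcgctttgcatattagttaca
4933433G15Rik (chr9:75317313-75317426, plus strand): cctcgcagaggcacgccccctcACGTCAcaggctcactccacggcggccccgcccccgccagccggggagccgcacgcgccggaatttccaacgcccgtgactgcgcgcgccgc
4933404O12Rik (chr5:136944485-136944784, plus strand): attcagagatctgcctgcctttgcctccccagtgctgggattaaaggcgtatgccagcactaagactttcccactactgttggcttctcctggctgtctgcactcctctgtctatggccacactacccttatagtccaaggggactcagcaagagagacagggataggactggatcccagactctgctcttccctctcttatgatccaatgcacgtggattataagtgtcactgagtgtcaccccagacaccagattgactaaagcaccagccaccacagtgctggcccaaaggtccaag
4930598N05Rik (chr10:10110446-10110745, plus strand): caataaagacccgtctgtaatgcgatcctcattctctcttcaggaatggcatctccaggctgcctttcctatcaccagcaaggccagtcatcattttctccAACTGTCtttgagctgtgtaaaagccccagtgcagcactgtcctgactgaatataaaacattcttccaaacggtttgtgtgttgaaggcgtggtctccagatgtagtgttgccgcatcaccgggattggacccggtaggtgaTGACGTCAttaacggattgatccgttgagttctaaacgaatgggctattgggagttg

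The start of 4930598N05Rik held an AACTGNC match and the palindrome TGACGTCA, in which TGACGT matches on both strands. The starts of 4921527H02Rik and 4933433G15Rik each held 1 TGACGT match, read on the opposite strand, and that of 4933404O12Rik held none of the motifs searched. Over all members with an annotated start, AACTGNC was found in 23 of 187 windows (12.3%), against 12.6% of 20074 windows of tested genes. It was in 14 of 77 windows (18.2%) of members at least 2-fold lower and in 2 of 48 (4.17%) of members within 0.25 log2 units of 0. TGACGT was in 8.02% of members and 8.58% of all genes, and in 6.49% and 4.17% of those same 2-fold lower and near-0 members. GTTGCCA, a part of the RFX-type X-box, was in 5.88% of members and 3.74% of all genes, and its split ran the other way, at 2.60% and 8.33%. The windows rest on starts of a later annotation release than the one used for counting.

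Lower in level, 4930432H08Rik (chromosome 5, 106421619 to 106514730, minus strand) had 6.99, 2.85, 4.68 and 2.11 CPM in controls and 1.99, 0.777, 1.26 and 1.28 CPM in cKO. It shares 895 exonic bases with another member on the opposite strand, 4930458A03Rik, and since the libraries were not stranded the reads of both cannot be told apart. Their log2 fold changes were -1.65 and -1.66. The lncRNA 4930509G22Rik (chromosome 16, 10994094 to 11010156, plus strand) had 6.72, 7.20, 8.66 and 8.90 CPM in controls and 4.05, 5.05, 4.47 and 5.67 CPM in cKO. It was not highest in either library numbered 1, and the groups did not overlap (log2 fold change -0.71, SE 0.19, adjusted p = 0.327 by edgeR). It overlaps the first exonic bases of *Zc3h7a*, a zinc finger gene with a log2 fold change of -0.19 ± 0.28 (SE).

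At the limit of detection, 4933428G20Rik, which lies antisense within *Arhgap23*, held 19, 18, 12 and 19 counts in controls and 6, 3, 4 and 5 counts in cKO. The 2 genes share 360 exonic bases, at 1.64 TPM for the member and 33.5 TPM for *Arhgap23* in controls. Their reads cannot be told apart by strand, and *Arhgap23* had a log2 fold change of -0.11 ± 0.09 (SE). The lncRNA 4933406K04Rik held 24, 7, 17 and 6 counts in controls and 2 or 3 counts in each cKO library. For 4921523L03Rik, which is absent from the annotation release, the counts were 27, 8, 26 and 7 in controls and 1, 1, 2 and 4 in cKO. All 3 had groups that did not overlap, with most cKO values at or near the floor of 3 counts, and adjusted p-values of 0.313, 0.323 and 0.268 by edgeR. The pseudogene 4930526A20Rik had 7.20, 4.41, 4.17 and 3.90 CPM in controls and 1.73, 1.42, 1.95 and 2.13 CPM in cKO (log2 fold change -1.44, SE 0.28, adjusted p = 0.144 by edgeR). It lies on the same strand within *Tcp11*, a testis gene expressed late in spermatogenesis whose own log2 fold change was -2.06 ± 1.10 (SE), and reads from unspliced *Tcp11* RNA could not be separated from it.

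**Figure D3:**
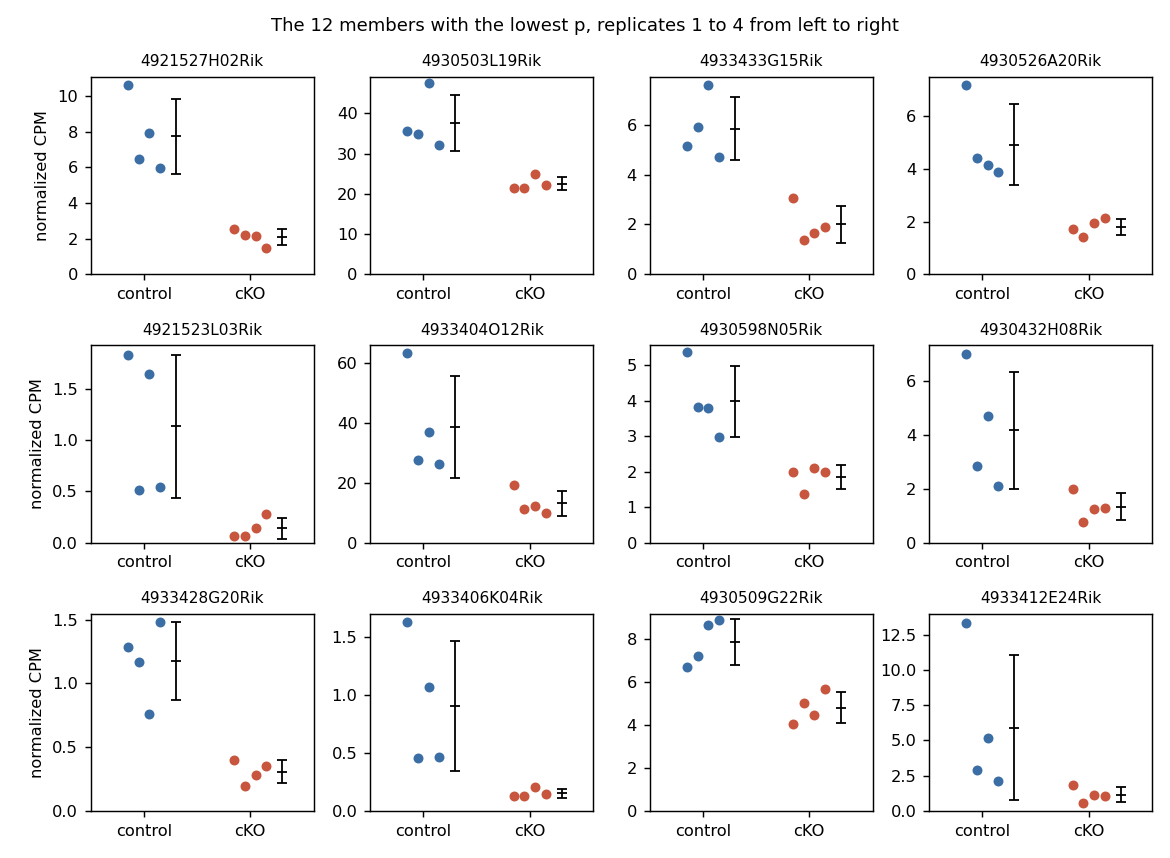
Normalized CPM of the 12 members with the lowest p, from 0 on linear axes, with replicates 1 to 4 from left to right as points and the mean and SD as a bar beside them (4 control and 4 cKO libraries). In all 12 panels every cKO point lies below every control point, which the choice by p favours. Control 1 is the highest control in panels such as 4933404O12Rik and 4933412E24Rik but not in 4930509G22Rik.

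Of the protein-coding members, 4930503L19Rik on chromosome 18 had the lowest p. It held 526, 539, 754 and 410 counts in controls and 323, 332, 358 and 313 counts in cKO, with no overlap and little spread among mutants in CPM (37.6 ± 6.90 against 22.5 ± 1.68, SD, n = 4). The log2 fold change was -0.74 (SE 0.13, adjusted p = 0.0983 by edgeR and 0.000178 by DESeq2). It shares 418 exonic bases with *Stard6*, a lipid transfer domain gene of the testis on the opposite strand, whose log2 fold change was -1.02 ± 0.36 (SE). The single-exon gene 4933412E24Rik (chromosome 15, 59886715 to 59888462, minus strand) had 13.4, 2.92, 5.18 and 2.11 CPM in controls and 1.86, 0.582, 1.12 and 1.06 CPM in cKO. Control 1 alone lifted its control mean to 5.90 ± 5.15, and the log2 fold change of -2.35 became -1.89 without both libraries numbered 1 (adjusted p = 0.345 and 0.00155 by edgeR).

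The 29-exon gene 4932414N04Rik (chromosome 2, 68486830 to 68578811, plus strand) had 18.3, 4.99, 10.4 and 6.64 CPM in controls and 4.58, 2.07, 1.33 and 0.851 CPM in cKO. Its groups did not overlap, though cKO 1 came close to control 2 (log2 fold change -2.18, SE 0.59, adjusted p = 0.369 by edgeR, and 1.25e-05 without both libraries numbered 1). These 3 coding genes are on the study's own list of changed genes, chosen on these same samples, so they are no independent evidence of its direction.

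The 8 members of highest level in controls were all protein-coding. None passed the edgeR test, against 0.0396% of all genes, and DESeq2 called 0, against 1.97% of all genes. At such shares, 0 calls among 8 genes say little about change. By edgeR, 4930524B15Rik and 4930579G24Rik were lower at an unadjusted p under 0.05, 2 of the 8, against 6.28% of all genes. The highest was 4932438A13Rik, now *Bltp1*, a bridge-like lipid transfer protein, with 89.4, 99.3, 123 and 94.9 TPM in controls and 68.5, 97.7, 87.3 and 104 TPM in cKO. The groups overlapped (log2 fold change -0.20, SE 0.11, adjusted p = 0.626 by edgeR). The second was 4930447C04Rik, also called *Six6os1*, a central element protein of the synaptonemal complex that holds paired chromosomes together in meiosis. Its CPM ran against most members, with 44.3, 85.7, 104 and 91.8 in controls and 58.4, 87.0, 102 and 106 in cKO, so that library 1 was the lowest of each group. Its log2 fold change was 0.12 (SE 0.30, adjusted p = 0.943 by edgeR), and 0.07 without both libraries numbered 1.

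The third was 4933434E20Rik, at 72.3 ± 6.36 TPM in controls and 68.0 ± 8.93 TPM in cKO, with a log2 fold change of 0.05 ± 0.09 (SE). The next were 4921524J17Rik and 4930524B15Rik, at 51.5 and 48.1 TPM in controls, with log2 fold changes of -0.22 ± 0.11 and -0.49 ± 0.14 (SE). In 4930524B15Rik the lowest control had 43.4 CPM and the highest mutant, cKO 1, 43.8 CPM, and without both libraries numbered 1 the adjusted p was 0.0319 by edgeR. For 4930579G24Rik, which overlaps the start of *Etfdh*, a mitochondrial electron transfer enzyme, the values were 730, 437, 625 and 370 counts in controls and 453, 333, 272 and 274 counts in cKO. Only cKO 1 lay within the control range in CPM (log2 fold change -0.70, SE 0.21, adjusted p = 0.400 by edgeR and 0.000257 without both libraries numbered 1), while *Etfdh* had 0.15 ± 0.09 (SE). The eighth, 4931406C07Rik, had 42.5 ± 4.48 CPM in controls and 38.7 ± 1.52 CPM in cKO, with a log2 fold change of -0.14 ± 0.10 (SE).

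The level of 4930469K13Rik, sixth by TPM, rested on few reads. Its 35.4 ± 35.8 TPM in controls and 34.2 ± 24.9 TPM in cKO came from 33, 28, 35 and 23 counts in controls and 26, 17, 27 and 27 in cKO. The counts varied far less than the TPM values. For 17 of the 192 members the TPM means and the fitted counts differed in the direction of change.

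In the annotation release used here, 13 members carried a newer name, of which 10 were lower (median log2 fold change -0.20). A newer name does not always state a role. Of the 13, 3 were at least 2-fold lower, the lowest at -2.92, and 1 had every cKO library below every control. The examples that follow were chosen by their annotated role after values were seen, and all lie near 0. The microtubule tyrosine carboxypeptidase gene 4931428F04Rik (*Matcap1*) held 180, 164, 155 and 192 counts in controls and 209, 185, 178 and 176 counts in cKO. The sperm microtubule inner protein gene 4921507P07Rik (*Spmip4*) held 103, 123, 101 and 107 counts in controls and 94, 132, 112 and 101 counts in cKO. The groups overlapped in both, with log2 fold changes of 0.09 ± 0.16 and 0.0037 ± 0.18 (SE). The RNA ligase gene 4930430F08Rik (*Rlig1*) was alike, with -0.03 ± 0.17 (SE). It shares 2170 exonic bases with *Cep290* on the opposite strand, whose log2 fold change was -0.48 ± 0.13 (SE). Reads of these genes cannot be told apart by strand.

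Just 1 member, the lncRNA 4930481A15Rik (chromosome 19, 5456764 to 5472880, plus strand), had every cKO library above every control. Its values were 1.49, 1.62, 0.695 and 1.56 CPM in controls and 2.46, 2.85, 1.75 and 2.62 CPM in cKO. The difference of 0.85 log2 units (SE 0.34) did not pass the test (adjusted p = 0.513 by edgeR). It shares 851 exonic bases with *Drap1*, a transcription repressor subunit on the opposite strand at 293.5 TPM in controls, which had a log2 fold change of -0.22 ± 0.11 (SE).

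Many members lie beside another gene on the opposite strand. Exons of 56.1% of the 187 annotated members overlapped exons of an opposite-strand tested gene, against 33.7% of all tested genes. An opposite-strand coding gene started within 1000 bases of 50 members (26.7%), against 13.6%. In 41 of these pairs the member was noncoding. The 41 members had a median log2 fold change of -0.71 with 36 lower, and their partners a median of -0.04 with 22 lower. Median control levels were 2.06 TPM for these members and 37.6 TPM for the partners. Only the members were chosen by control level, which favours genes lower in cKO, so the contrast is a description. The part of level and choice in it was not tested. The member was below its partner in 35 of 41 pairs. Of the partners, 34 were within 0.25 log2 units of 0, and none was 2-fold lower, against 13 of the members.

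The pairs in the following sentences were chosen after their values were seen. The lncRNA 4933437G19Rik had a log2 fold change of -1.92, and *Pheta1*, an endosomal trafficking gene that it overlaps by 815 exonic bases, had 0.11 ± 0.13 (SE). For 4933405D12Rik and the coding gene 1810037I17Rik, which share 44 exonic bases, the values were -1.98 and 0.10. Both genes of some pairs were lower, as in 4930518J20Rik and *Tdrd5*, a piRNA pathway gene of spermatocytes, at -1.76 and -0.99 ± 0.33 (SE). In 4930467D21Rik and *Naa11*, a testis paralogue of an N-terminal acetyltransferase, the values were -0.70 and -0.77 ± 0.29 (SE). Exons overlapped in 34 of the 41 pairs, and the libraries were not stranded, so the reads of such pairs were assigned by the authors' counting and cannot be told apart by strand. In the 56 members with no tested gene overlapping or starting within 1000 bases, 49 were lower and the median log2 fold change was -1.21. That search used the later annotation release, and overlap with untested genes was not examined.

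**Figure D4:**
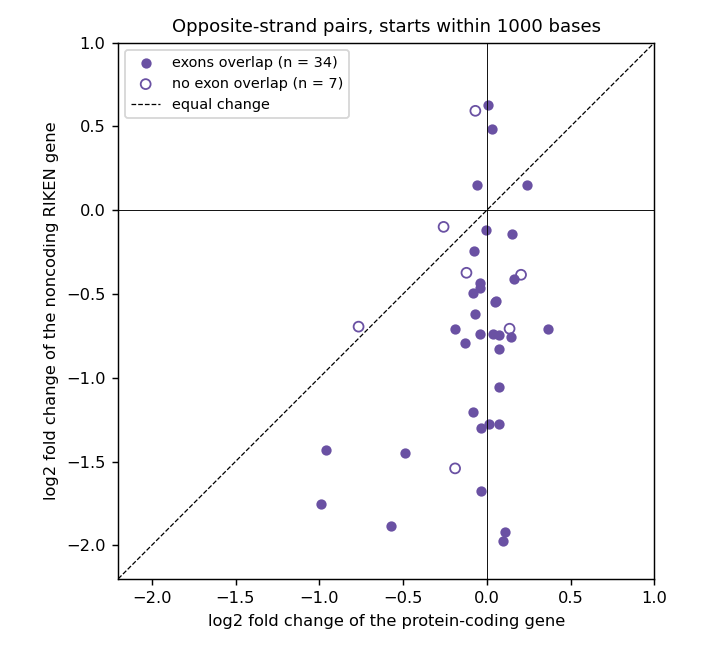
Each point is 1 of 41 pairs, with the log2 fold change (cKO over control) of the protein-coding gene on the x axis and that of the noncoding RIKEN gene starting within 1000 bases on the opposite strand on the y axis. Filled points are the 34 pairs with overlapping exons, open points the 7 without, and the dashed line marks equal change. Most points lie near 0 on the x axis and below the dashed line. The RIKEN genes were chosen by control level and the protein-coding genes were not.

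The 3 members with the highest spread over controls rested on the libraries numbered 1. The coding gene 4933402N22Rik, now *Speer1m*, held 72, 12, 9 and 1 counts in controls and 11, 0, 0 and 1 in cKO. The lncRNA 4930449C09Rik held 122, 13, 21 and 2 counts in controls and 49, 0, 0 and 0 in cKO. The lncRNA 4930589P08Rik held 45, 1, 0 and 1 counts in controls and 14, 0, 0 and 1 in cKO. In each, library 1 held most of the counts of its group, and none passed the edgeR test (adjusted p = 0.593, 0.802 and 0.802). The adjusted p-values by edgeR without both libraries numbered 1 were 0.131, 0.00567 and 0.925, so that 4930449C09Rik passed, with cKO 2 to 4 all at 0. The 3 steadiest over controls were 4931440P22Rik at 4.55 ± 0.156 TPM, 4933421O10Rik at 3.33 ± 0.163 TPM (SD, n = 4) and 4933434E20Rik, described above. Their log2 fold changes lay between 0.04 and 0.18.

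At the limit of 1 TPM, the members just inside were 4930558F17Rik, 4930509H03Rik and 4930597O21Rik, with mean control levels of 1.04, 1.03 and 1.02 TPM and cKO levels of 0.363, 0.658 and 0.685 TPM. Just outside were 4930553I04Rik, 4930426L09Rik and 4930431P19Rik, at 0.998, 0.998 and 0.993 TPM in controls and 0.138, 0.448 and 1.23 TPM in cKO. Below the limit, 85 further testis-series genes were tested, of which 58 were lower (median log2 fold change -0.57).

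The members resembled the 1700 RIKEN genes, also from adult testis, more than RIKEN genes of other libraries. Of 167 genes of the 1700 series at 1 TPM or more in controls, 135 (80.8%) were lower and the median log2 fold change was -0.87. Of the 458 remaining RIKEN genes at that level, 288 (62.9%) were lower with a median of -0.10. Every cKO library lay below every control in 14 of the 167 and in 20 of the 458, against 3.45% of all genes at that level. Among lncRNAs at that level without a RIKEN name, 629 of 943 (66.7%) were lower with a median of -0.21, against -0.81 for lncRNA members. Without both libraries numbered 1 the medians of the 1700 and remaining series were -0.89 and -0.07. These differences between lists of genes are descriptions, since genes of a list are not replicates.

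**Figure D5:**
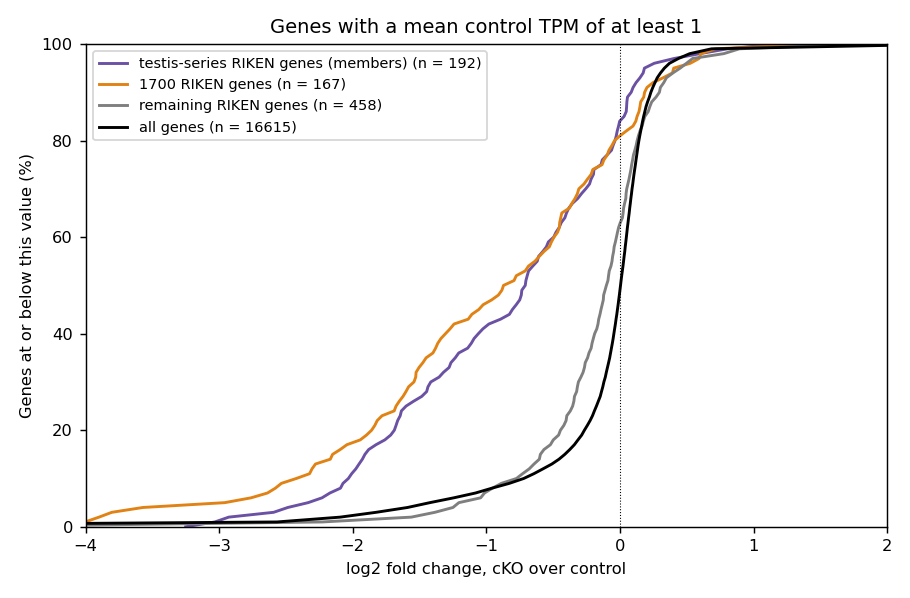
Share of genes (%) at or below each log2 fold change of cKO over control, for genes with a mean control level of at least 1 TPM in 4 lists. The curves of the 192 members and of the 167 genes of the 1700 series lie close to each other, with 83.9% and 80.8% below 0, to the left of the 458 remaining RIKEN genes (62.9%) and of all 16615 genes (49.1%).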

How the data were processed

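The authors prepared non-stranded polyA+ libraries, aligned paired reads to mm39 with STAR 2.7.9a and quantified genes with RSEM 1.3.3, per the labels and methods. They deposited expected counts (estimated counts that need not be whole) and TPM values of 55357 genes for 8 samples. Expected counts were rounded here (6.37% were not whole) and the 20187 genes reaching a TPM of 1 in any sample were tested with edgeR 4.0.16 (TMM, robust quasi-likelihood fit, no covariate, Benjamini-Hochberg over all genes, threshold 0.05). The script was tested on simulated data. Alternatives were DESeq2 1.42.0, other scaling and filters, limma-trend (limma 3.58.1) on log2(TPM + 1), the replicate number as a block, and leaving out libraries. Positions, biotypes and neighbours came from GENCODE M39 on GRCm39, in which 187 members were found by Ensembl identifier.

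Members and lists were chosen with earlier results of these data known. Genes were named by rule: *Mgat2*, members called by edgeR, the 12 lowest p, the 8 highest control TPM, the 3 largest falls and rises with groups apart, the 3 highest and lowest control variation, the 3 on each side of 1 TPM, members on the study's list, and their neighbours. Leydig, myoid, macrophage, endothelial and red blood cell markers had median log2 fold changes of -0.04, 0.17, 0.06, -0.17 and 0.10, with 0 genes called by edgeR or DESeq2 and 1 (*Csf1r*) at an unadjusted p under 0.05.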

Additional observations from a re-analysis of the deposited data

Results flagged for a closer look

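Values far from the other 3 of their group were looked for by Dixon's ratio in 62 groups, the 31 named genes by 2 genotypes, and 14 were found. Chance flags about 1 in 20 groups. The named genes include 3 chosen for the highest variation over controls, which gave 6 of the 14, so this rate is no measure of the excess. Of the 14, 9 were in the libraries numbered 1, each the highest of its group. They were 4930526A20Rik in control 1 (7.20 CPM), 4933402N22Rik in control 1 (4.89 CPM) and cKO 1 (0.730 CPM), 4930449C09Rik in control 1 (8.28 CPM) and cKO 1 (3.25 CPM), 4930589P08Rik in control 1 (3.05 CPM) and cKO 1 (0.929 CPM), and 4930558F17Rik in control 1 (0.815 CPM) and cKO 1 (0.465 CPM).

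The others were 4932438A13Rik (*Bltp1*), high in control 3 (633 CPM), 4930481A15Rik, low in control 3 (0.695 CPM), 4930598N05Rik, low in cKO 2 (1.36 CPM), 4933406K04Rik, high in cKO 3 (0.209 CPM, at 3 counts), and 4921524J17Rik, low in cKO 4 (31.8 CPM).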

How the results depend on the processing

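The number of members called by edgeR was 1, against 0.0396% of all genes. DESeq2 called 12, against 1.97% of all genes, and limma-trend called 0 members and 0 of all genes. With edgeR the number was 3 without an expression filter (0.119% of all genes) and 0 with filterByExpr (148 members tested, 0 of all genes called). It was 32 without both libraries numbered 1 (chosen after seeing the data), against 4.24% of all genes. With 1 library left out it was 0 to 2, against 0 to 0.159% of all genes. With DESeq2's size factors or library totals it was 1, against 0.0396% and 0.0842% of all genes. Members with every cKO library below every control numbered 69 without both libraries numbered 1, against 10.6% of all genes. With 1 left out they numbered 23 to 65, the most without cKO 1 (8.97% of all genes), and 36 without control 4 (5.66%). Those with every cKO library above numbered 0 with limma-trend on TPM, 6 without both libraries numbered 1 (8.17% of all genes) and 1 to 4 with 1 left out. Where no share of all genes stands beside these counts, it was not taken in that setting. Such counts cannot be set against a background. The median log2 fold change ran from -0.85 to -0.46 with 1 library left out, the latter without control 1, and was -0.44 for genes chosen by the cKO level (chosen after seeing the data). At a mean control level of at least 2 TPM, 106 of 127 members were lower. *Mgat2* had a log2 fold change of -1.05 (adjusted p = 0.470 by edgeR), -1.06 with DESeq2 (adjusted p = 0.0242), and -1.25 to -0.87 with 1 library left out. The call of 4921527H02Rik was also lost with filterByExpr (adjusted p = 0.0537) and limma-trend (0.0891). The sign turned with limma-trend in 4933434E20Rik (-0.0919), 4930469K13Rik (0.127) and 4931440P22Rik (-0.00656). With 1 library left out it turned without control 1 in 4930447C04Rik (-0.0852 to 0.273), 4930449C09Rik (-8.29 to 0.0651) and 4930589P08Rik (-4.68 to 2.26), and without cKO 4 in 4933421O10Rik (-0.0844 to 0.113). None of these passed the test with all libraries, though 4930449C09Rik passed without both libraries numbered 1 (adjusted p = 0.00567 by edgeR) and with the replicate block (0.021). Without cKO 1 its mutants are at 0 and the fitted fold depends on the prior count. The cause was not tested. Of 473 values of the 30 named members under an alternative, 37 passed the threshold, 7 lost it, 7 turned and 422 did none of these. The 422 include DESeq2 values without an adjusted p, such as that of 4921523L03Rik, which had no side of the threshold to keep. With the replicate number as a block, edgeR called 48 of the 192 members, against 7.25% of all genes (1464 genes). The numbers are not shown to pair the samples: deviations of same-numbered libraries from their group means correlated at 0.53, 0.14, 0.04 and 0.20 for numbers 1 to 4 (mean 0.229, against -0.0683 for different numbers), and control 2 correlated best with cKO 4. Genes with 3 counts or fewer in a library were limited by depth.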
